A study of Mus musculus with 12 samples.

Results

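The transcripts of 10 genes of the NRF2 antioxidant pathway were followed in the hypothalamus of obese mice given celastrol or withaferin A. The genes were chosen by name for their place in this pathway, with earlier results of these data known: Nfe2l2, Keap1, Slc7a11, Gclc, Gclm, Gsr, Txnrd1, Srxn1, Nqo1 and Hmox1. Each was read from the array probe set that carries its symbol alone, of which every gene had 1, and they are 10 of the 19938 genes with such a probe set. The 12 samples were of hypothalamus, on one-colour Affymetrix arrays, 4 per group, from male C57BL/6J mice. High-fat feeding (45% fat) had begun when the mice were 3 weeks old and lasted 20 weeks, which made them 23 weeks old. All had also received daily intraperitoneal DMSO for 4 days before the groups were formed. The celastrol group was then injected with 100 µg/kg celastrol, the withaferin A group with 2 mg/kg withaferin A and the DMSO group with DMSO, daily for 4 days. The labels call the samples of a group biological replicates and do not say whether tissue of several mice was pooled. Every mouse ate the high-fat diet, so each comparison holds within that diet.

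NRF2, the protein of Nfe2l2, is a transcription factor that KEAP1 keeps scarce by marking it for degradation. Electrophiles and oxidants react with cysteines of KEAP1, NRF2 then accumulates, and with small MAF proteins it binds antioxidant response elements near genes that make glutathione, reduce thioredoxin and detoxify quinones and heme. In the brain this programme is best known from astrocytes, which supply glutathione precursors to neurons. Celastrol, a plant triterpenoid quinone methide, and withaferin A, a plant steroidal lactone, are both electrophiles, and both are known to lower food intake in obese mice. The comparisons ask whether the transcripts of this programme differed after either compound.

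The promoters of 4 members are shown first. The antioxidant response element was searched for by its core letters, TGACNNNGC, or GCNNNGTCA on the other strand, in RefSeq windows of 300 bases, from 250 before to 50 after a transcript start (GRCm38.p6). Of 32851 such windows of all genes 12.4% hold the core. Windows were at hand for 7 of the 10 genes (9 windows), and 4 windows of 4 genes held 1 match each. They were those of Gclm (first base at −134 from the start), Txnrd1 (−92, in the second of its 3 windows), Nfe2l2 (TGACTCCGC at −240) and Srxn1 (GCTAGGTCA at 29 bases into the transcript). The 250 bases before the start are given 5′ to 3′ for Nqo1 (minus strand, chr8:107403206-107403455), Slc7a11 (minus strand, chr3:50443614-50443863, a start inside the annotated gene), Gclm (plus strand, chr3:122245307-122245556) and Txnrd1 (plus strand, chr10:82858956-82859205), with a match to the core in capitals. Nqo1 and Slc7a11 are shown because their transcripts lay lower after celastrol, and Gclm and Txnrd1 because their windows hold the core.
Nqo1: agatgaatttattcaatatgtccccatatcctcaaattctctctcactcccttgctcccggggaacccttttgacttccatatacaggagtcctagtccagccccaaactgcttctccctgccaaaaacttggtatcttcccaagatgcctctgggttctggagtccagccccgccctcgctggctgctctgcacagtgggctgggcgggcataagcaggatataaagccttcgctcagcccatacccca
Slc7a11: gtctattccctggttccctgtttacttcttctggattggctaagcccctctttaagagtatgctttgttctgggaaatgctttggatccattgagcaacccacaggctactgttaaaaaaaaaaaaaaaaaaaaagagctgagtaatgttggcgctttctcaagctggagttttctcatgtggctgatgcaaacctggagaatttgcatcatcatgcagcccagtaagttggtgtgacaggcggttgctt
Gclm: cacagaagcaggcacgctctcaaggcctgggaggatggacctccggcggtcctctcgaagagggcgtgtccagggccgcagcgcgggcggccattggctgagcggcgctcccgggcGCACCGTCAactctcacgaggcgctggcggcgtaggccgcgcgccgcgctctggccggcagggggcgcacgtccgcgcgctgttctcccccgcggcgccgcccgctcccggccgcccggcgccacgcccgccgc
Txnrd1: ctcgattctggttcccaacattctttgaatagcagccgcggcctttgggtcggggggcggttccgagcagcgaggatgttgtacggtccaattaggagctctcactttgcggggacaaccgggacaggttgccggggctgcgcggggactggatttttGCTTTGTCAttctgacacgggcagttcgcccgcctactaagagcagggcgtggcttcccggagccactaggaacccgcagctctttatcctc
The windows of Nqo1 and Slc7a11 hold no match, which says only that these letters are not in these 300 bases. The window of Keap1, whose transcript showed no called difference, holds no match either. The element known to drive Nqo1 lies farther upstream of its start.

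The values are log2 signals after RMA, an array method that corrects background, equalises the distributions of the arrays and summarises the probes of a set. Array medians lay between 6.89 and 6.98, and with no counts behind such values their precision rests on 4 arrays a group. Hypothalamic identity was checked with 14 marker genes, of which 13 had a value, all 13 above the limit for dim genes and 11 above the median gene. A gene was called dim, and not tested, where its mean over the 12 arrays was below 5.81, the 25th percentile of genes. All 10 pathway genes passed this filter, with means from 6.18 for Nqo1 to 10.11 for Gclc. Nqo1 lay at the 30.3rd percentile of gene means and Hmox1 at the 46.2nd, and the other 8 genes at the 61.6th or higher. Pituitary transcripts as a set were higher on every celastrol array than on every DMSO array, and highest on celastrol replicate 2. Thalamus transcripts varied within every group, and both are detailed beside the results for Nqo1.

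No gene of the 10 rose after either compound. After celastrol 1 of the 10, Nqo1, passed the threshold (adjusted p under 0.05 in limma's moderated test, adjusted over all 14953 genes tested), and it fell. In whole tissue, fewer cells of a type and less RNA per cell cannot be told apart. Over all genes 0.769% passed in this comparison, and 0.314% passed as lower. After withaferin A 0 of the 10 passed, as did 0% of all genes. At an unadjusted p under 0.05 the numbers were 2 of the 10 genes after celastrol, against 1561 of all genes (10.4%). After withaferin A they were 1 of the 10, against 2352 of all genes (15.7%). Between the compounds, withaferin A against celastrol, 0 of the 10 passed, against 0.0468% of all genes. Of the 10, 2 had an unadjusted p under 0.05 there, against 2413 of all genes (16.1%). The doses of the compounds differ, so this last comparison sets treatments side by side and not molecules at a matched dose. The median log2 change of the 10 genes was −0.05 after celastrol and −0.06 after withaferin A, against medians of −0.02 and −0.0041 over all genes tested. Both comparisons use the same 4 DMSO arrays.

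**Figure D1:**
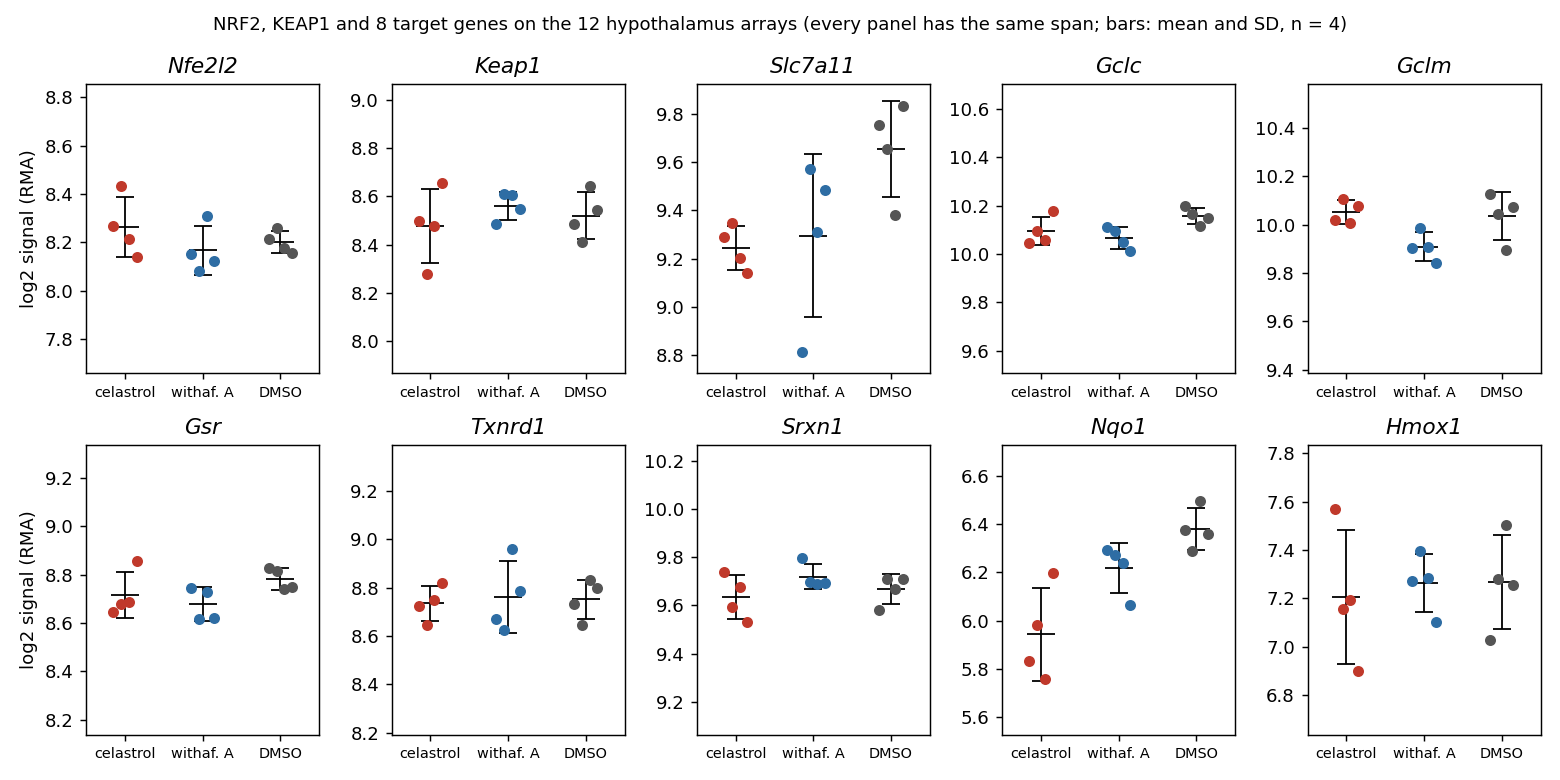
Log2 signal of each gene (vertical axis, the same span in every panel) on each of the 12 arrays. Points are single arrays, left to right celastrol, withaferin A and DMSO, and bars are the group mean and SD (n = 4); the celastrol arrays of Nqo1 (5.76 to 6.20) and of Slc7a11 (9.14 to 9.35) lie below all DMSO arrays of the same gene.

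Nqo1 encodes a quinone reductase that uses NADPH or NADH to reduce quinones fully, and it is a classic read-out of NRF2 activity. The gene lies at chr8:107388225-107403205 (GRCm38.p6). Its log2 signal was 5.83, 5.98, 5.76 and 6.20 on the celastrol arrays and 6.29, 6.27, 6.24 and 6.07 on the withaferin A arrays, against 6.38, 6.29, 6.49 and 6.36 on the DMSO arrays. Every celastrol array was below every DMSO array, with a gap of 0.09 between the highest celastrol and the lowest DMSO array, and 3 of the 4 withaferin A arrays were below every DMSO array. The group means were 5.94 ± 0.19 with celastrol, 6.22 ± 0.10 with withaferin A and 6.38 ± 0.09 with DMSO (SD, n = 4 each). Nqo1 fell by 0.44 ± 0.09 on the log2 scale after celastrol (SE, 95% interval −0.63 to −0.24), which is a signal 26.1% lower (adjusted p = 0.0431). One of the celastrol arrays (5.76) was below the limit for dim genes. After withaferin A its log2 change was −0.16 ± 0.09 (95% interval −0.35 to 0.03, adjusted p = 0.39). The direct difference, withaferin A minus celastrol, was 0.27 ± 0.09 (95% interval 0.08 to 0.46, adjusted p = 0.192) and did not pass. In the order of its means, celastrol, withaferin A, DMSO, neither pair of neighbours therefore differed past the threshold.

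The call for Nqo1 after celastrol stood close to the threshold. It was kept in 7 of the 20 alternative settings in which the gene was tested and lost in 13, while its log2 value stayed between −0.52 and −0.37 and its adjusted p ran from 0.014 to 0.234. Most fits that left out 1 celastrol or DMSO array lost the call. Without any 1 of the 4 DMSO arrays the adjusted p was 0.106 to 0.119, and without celastrol replicate 1, 2 or 3 it was 0.104, 0.102 and 0.13. The call was also lost without withaferin A replicate 2 (0.0531) or 3 (0.0591), arrays that enter only through the pooled spread. Without celastrol replicate 4, the array nearest to DMSO, the value was −0.52 (adjusted p = 0.014). With no filter on dim genes the adjusted p was 0.0685 and with only the celastrol and DMSO arrays it was 0.054.

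Some lists of cell and tissue markers separated the celastrol from the DMSO arrays, and others did not. A score was taken for each marker list, the mean log2 signal of its genes relative to their means over the 12 arrays. The oligodendrocyte score (11 of 12 markers with a value) was −0.15 to −0.09 on the celastrol arrays and −0.22 to 0.08 on the withaferin A arrays, against 0.09 to 0.20 with DMSO. Celastrol and DMSO arrays did not overlap in it. Of those 11 markers 2 fell after celastrol, Opalin and Sox10, and 0 rose. The log2 changes of these 2 were −1.0 ± 0.18 and −0.39 ± 0.08 (adjusted p = 0.0229 and 0.0433). Of the 11, 9 had an unadjusted p under 0.05 after celastrol and 7 after withaferin A, against 10.4% and 15.7% of all genes. Values below 0 were held by 9 and 8 of the 11, and the highest values were 0.31 after celastrol and 0.04 after withaferin A. The pituitary score rests on 6 of 7 markers with a value, of which Tshb and Fshb were dim. It was 1.99 on celastrol replicate 2 and 0.01 to 0.14 on the other celastrol arrays. On the withaferin A arrays it was −0.40 to 0.07, and on the DMSO arrays −0.59 to −0.16. Celastrol and DMSO arrays did not overlap in this score either. Of its 4 tested markers 3 had an unadjusted p under 0.05 after celastrol, and 0 passed. Astrocyte scores overlapped, at −0.03 to 0.04 with celastrol, −0.11 to 0.02 with withaferin A and −0.01 to 0.08 with DMSO. The changes of the 10 astrocyte markers after celastrol ran from −0.37 to 0.43, 6 of them below 0. Of these 10, 4 had an unadjusted p under 0.05, against 10.4% of all genes, and 0 passed. Microglial scores overlapped too, at −0.13 to 0.02 with celastrol, −0.17 to 0.08 with withaferin A and −0.01 to 0.14 with DMSO. Of 10 tested microglial markers 1 fell after celastrol, P2ry13 (−0.56 ± 0.12, adjusted p = 0.0431). The changes of these 10 ran from −0.56 to 0.33, 7 of them below 0. Of the 10, 5 had an unadjusted p under 0.05, against 10.4% of all genes. Of 9 endothelial markers 1 rose, the glucose transporter gene Slc2a1 (0.75 ± 0.15, adjusted p = 0.0384), and 1 fell, the receptor gene Tek (−0.55 ± 0.11, adjusted p = 0.045), while endothelial scores overlapped between groups. Of 13 hypothalamus markers 1 fell after celastrol, the oxytocin gene Oxt (−0.40 ± 0.07, adjusted p = 0.0179). Of the 13, 10 had values below 0 and 6 had an unadjusted p under 0.05, with changes from −0.40 to 0.63. The hypothalamus score was −0.09 to 0.10 with celastrol and −0.13 to 0.05 with withaferin A, against −0.02 to 0.15 with DMSO. All 8 thalamus markers lay above the median gene, and their score was −0.26 to 0.67 with celastrol and −0.47 to 0.43 with withaferin A, against −0.65 to 0.48 with DMSO. Without celastrol replicate 2 the Nqo1 value was −0.45 (adjusted p = 0.102), and with pituitary and thalamus scores as covariates it was −0.39 ± 0.10 (adjusted p = 0.234). The pituitary score does not overlap between celastrol and DMSO, so the fit with covariates cannot fully tell it apart from the treatment. The part of oligodendrocyte, astrocyte, microglial, endothelial and hypothalamus marker transcripts in the result was not tested.

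**Figure D2:**
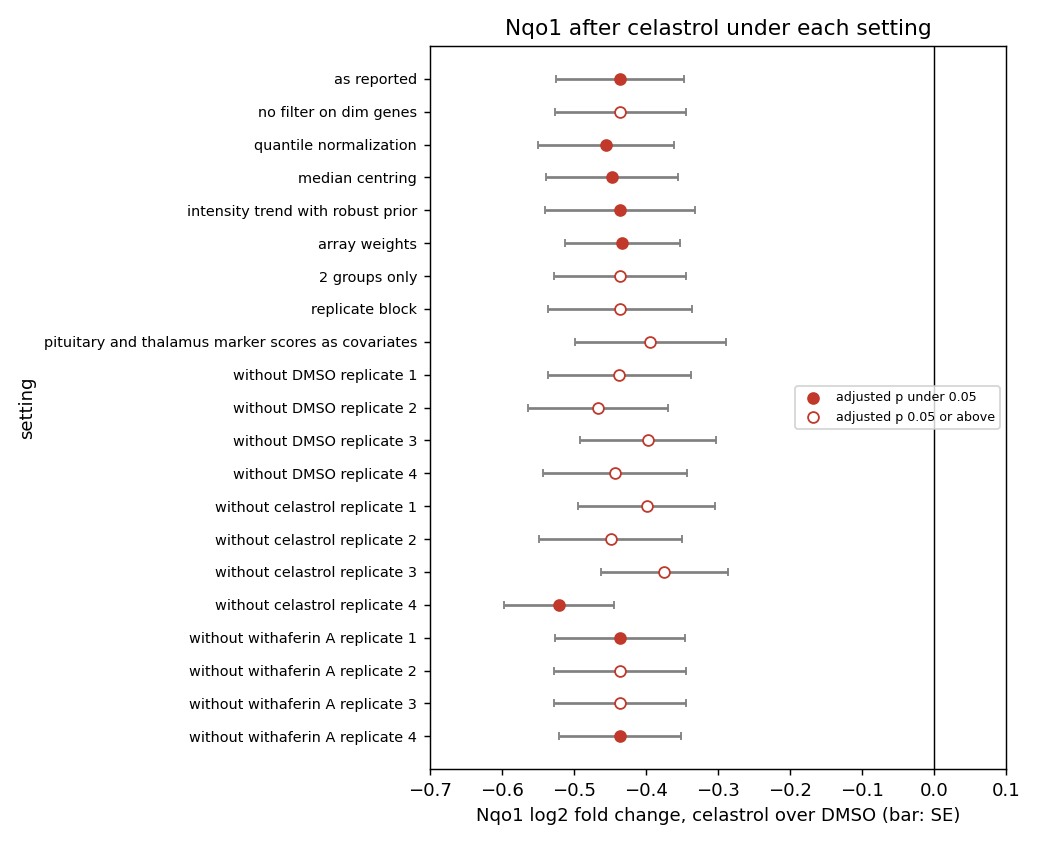
Log2 fold change of Nqo1, celastrol over DMSO (horizontal axis), as reported and under each of 20 alternative settings (vertical axis). Points are limma estimates with their SE, filled where the adjusted p is under 0.05; all values lie between −0.52 and −0.37, and 13 of the 20 alternatives are open points.

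By Pearson correlation over the 12 arrays, the genes outside the list whose signal was most like that of Nqo1 were Reln (0.93), Gad1 (0.92), Zfp687 (0.91), Aqp4 (0.90) and Psmb3 (0.87). These are coefficients of the 5 best among all tested genes, and group differences enter them. Reln encodes the secreted neuronal protein reelin, Gad1 the enzyme that makes GABA, Aqp4 the water channel of astrocytes and Psmb3 a proteasome subunit. Their log2 changes after celastrol were between −0.21 for Aqp4 and −0.17 for Reln, and after withaferin A between −0.14 for Psmb3 and −0.03 for Aqp4. None of the 5 passed in any of the 3 comparisons, the smallest adjusted p being 0.0837 for Psmb3 after celastrol.

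Hmox1 (chr8:75093618-75100593), the inducible heme oxygenase that turns heme into biliverdin, iron and carbon monoxide, is strongly induced in many cells treated with electrophiles. Its log2 signal was 7.57, 7.16, 7.19 and 6.90 on the celastrol arrays and 7.27, 7.39, 7.28 and 7.10 on the withaferin A arrays, against 7.03, 7.28, 7.51 and 7.26 on the DMSO arrays. The groups overlapped throughout. One celastrol array lay above all DMSO arrays and another below them all. The change was −0.06 ± 0.13 after celastrol (95% interval −0.34 to 0.21, adjusted p = 0.911) and −0.0045 ± 0.13 after withaferin A (95% interval −0.28 to 0.27, adjusted p = 0.989). In fold terms the upper bounds were 1.16 and 1.20. Hmox1 had, with Slc7a11, the widest intervals of the 10 genes.

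Slc7a11, Gclc and Gclm supply glutathione. Slc7a11 (chr3:50364936-50499087) is the light chain of the cystine and glutamate exchanger that brings in cystine, from which cysteine is made. Its log2 signal was 9.29, 9.35, 9.20 and 9.14 on the celastrol arrays and 8.82, 9.57, 9.31 and 9.48 on the withaferin A arrays, against 9.75, 9.65, 9.38 and 9.83 on the DMSO arrays. As for Nqo1, every celastrol array lay below every DMSO array, by a gap of 0.03, and 2 of the 4 withaferin A arrays did. These are 2 of the 10 genes with all celastrol arrays below DMSO, against 4.5% of all genes tested, and 0 of the 10 with all above, against 2.71%. The Slc7a11 value was −0.41 ± 0.14 after celastrol (95% interval −0.71 to −0.11, adjusted p = 0.256) and −0.36 ± 0.14 after withaferin A (95% interval −0.66 to −0.06, adjusted p = 0.256), and neither passed. Its spread differed between groups, with an SD of 0.09 with celastrol, 0.34 with withaferin A and 0.20 with DMSO, while the SE pools all 3. Withaferin A replicate 1 held the lowest signal of all 12 arrays, and without it the celastrol value was −0.41 ± 0.09 (adjusted p = 0.0589) and the withaferin A value −0.20 ± 0.10 (adjusted p = 0.426). Over all alternatives the celastrol value stayed between −0.64 and −0.35 and was not called in any.

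Gclc (chr9:77754535-77794489) and Gclm (chr3:122245487-122267215) are the catalytic and the modifier subunit of glutamate-cysteine ligase, the rate-limiting enzyme of glutathione synthesis. Gclc was at 10.05, 10.10, 10.06 and 10.18 on the celastrol arrays and 10.11, 10.09, 10.05 and 10.01 on the withaferin A arrays, against 10.20, 10.16, 10.12 and 10.15 on the DMSO arrays. All 4 withaferin A arrays were below all DMSO arrays, but barely, with the highest at 10.113 and the lowest DMSO array at 10.116. Gclc was the only gene of the 10 for which this held (4.69% of all genes tested), and 0 of the 10 lay above in all 4 (2.91% of all genes). The differences were small, at −0.06 ± 0.05 after celastrol (adjusted p = 0.731) and −0.09 ± 0.05 after withaferin A (adjusted p = 0.389). Gclm was at 10.02, 10.11, 10.01 and 10.08 with celastrol and 9.90, 9.98, 9.91 and 9.84 with withaferin A, against 10.13, 10.04, 9.89 and 10.07 with DMSO. Here the withaferin A arrays lay below all celastrol arrays (1 of the 10 genes, against 5.35% of all genes, with 0 of the 10 above and 3.92% of all genes), while they overlapped with DMSO. The Gclm change was 0.02 ± 0.06 after celastrol (adjusted p = 0.946), −0.13 ± 0.06 after withaferin A (adjusted p = 0.319) and −0.14 ± 0.06 for withaferin A against celastrol (adjusted p = 0.259).

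Gsr, Txnrd1 and Srxn1 recycle oxidised thiols: glutathione reductase and thioredoxin reductase use NADPH to reduce glutathione and thioredoxin, and sulfiredoxin repairs overoxidised peroxiredoxins. Gsr lay at 8.64 to 8.86 with celastrol and 8.62 to 8.75 with withaferin A, against 8.74 to 8.83 with DMSO. In each treated group 3 of the 4 arrays were below all DMSO arrays, and the changes were −0.07 ± 0.06 (adjusted p = 0.776) and −0.10 ± 0.06 (adjusted p = 0.4). Txnrd1 lay at 8.65 to 8.82 with celastrol and 8.62 to 8.96 with withaferin A, against 8.64 to 8.83 with DMSO, with changes of −0.02 ± 0.07 and 0.0087 ± 0.07 (adjusted p = 0.963 and 0.964). Srxn1 lay at 9.53 to 9.74 with celastrol and 9.69 to 9.80 with withaferin A, against 9.58 to 9.71 with DMSO. Its change was −0.03 ± 0.06 after celastrol and 0.05 ± 0.06 after withaferin A (adjusted p = 0.903 and 0.688). The groups of all 3 genes overlapped in both comparisons with DMSO. The signs of Txnrd1 in both comparisons and of Srxn1 after celastrol turned when single arrays were left out.

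The regulators themselves showed no called difference. Nfe2l2 was at 8.27, 8.43, 8.21 and 8.14 on the celastrol arrays and 8.15, 8.08, 8.31 and 8.12 on the withaferin A arrays, against 8.21, 8.26, 8.18 and 8.15 with DMSO. Its changes were 0.06 ± 0.07 after celastrol and −0.04 ± 0.07 after withaferin A (adjusted p = 0.83 each). Keap1 lay at 8.28 to 8.65 with celastrol and 8.49 to 8.61 with withaferin A, against 8.41 to 8.64 with DMSO, with changes of −0.04 ± 0.08 and 0.04 ± 0.08 (adjusted p = 0.9 and 0.818). NRF2 is regulated mainly through its stability, so the Nfe2l2 transcript does not measure the protein. Both genes overlapped between all groups, though 3 of the 4 withaferin A arrays of Nfe2l2 were below all DMSO arrays.

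**Figure D3:**
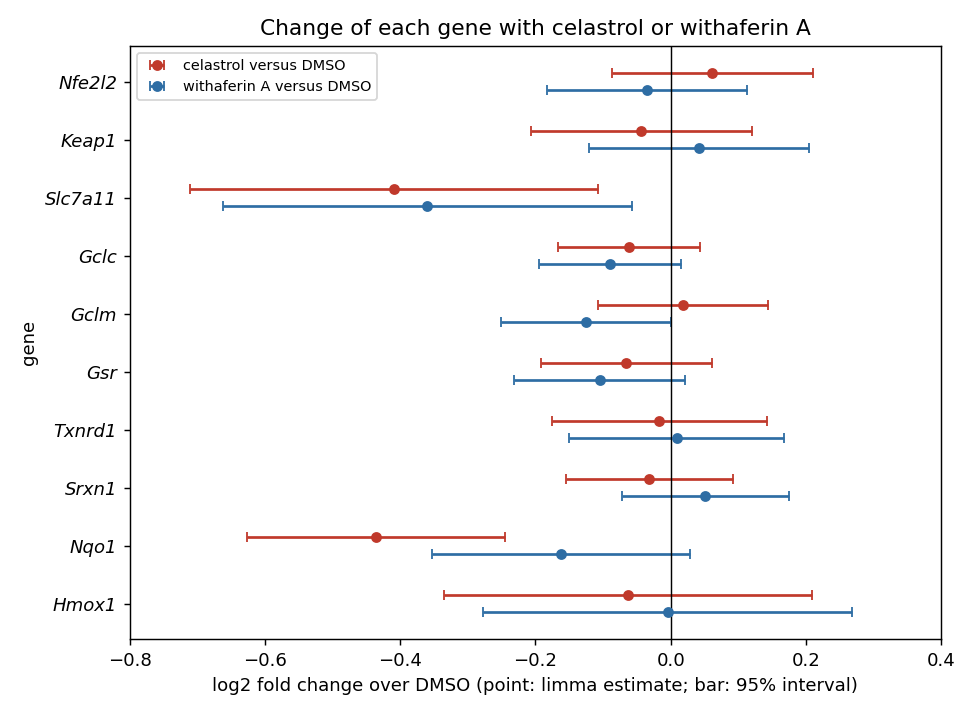
Log2 fold change of each gene over DMSO (horizontal axis), with celastrol and withaferin A side by side for each gene (vertical axis). Points are limma estimates and bars single-gene 95% intervals (n = 4 per group); Nqo1 and Slc7a11 lie lowest after celastrol, at −0.44 and −0.41, and no interval lies above 0.

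How large a rise these arrays leave room for can be read from the intervals, each of which covers 1 gene and was not widened for 10. The highest upper bound of the 10 genes was 1.16-fold after celastrol, for Nfe2l2 and Hmox1, and 1.20-fold after withaferin A, for Hmox1. The 95% interval of each of the 10 genes thus ended below 1.3-fold in both comparisons with DMSO. Between the compounds 9 of the 10 did, and that of Nqo1 ended at 1.38-fold. These bounds hold for the whole hypothalamus at 1 time, whose distance from the last injection the labels do not give, and do not bear on a change in a few cells or at an earlier hour.

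**Figure D4:**
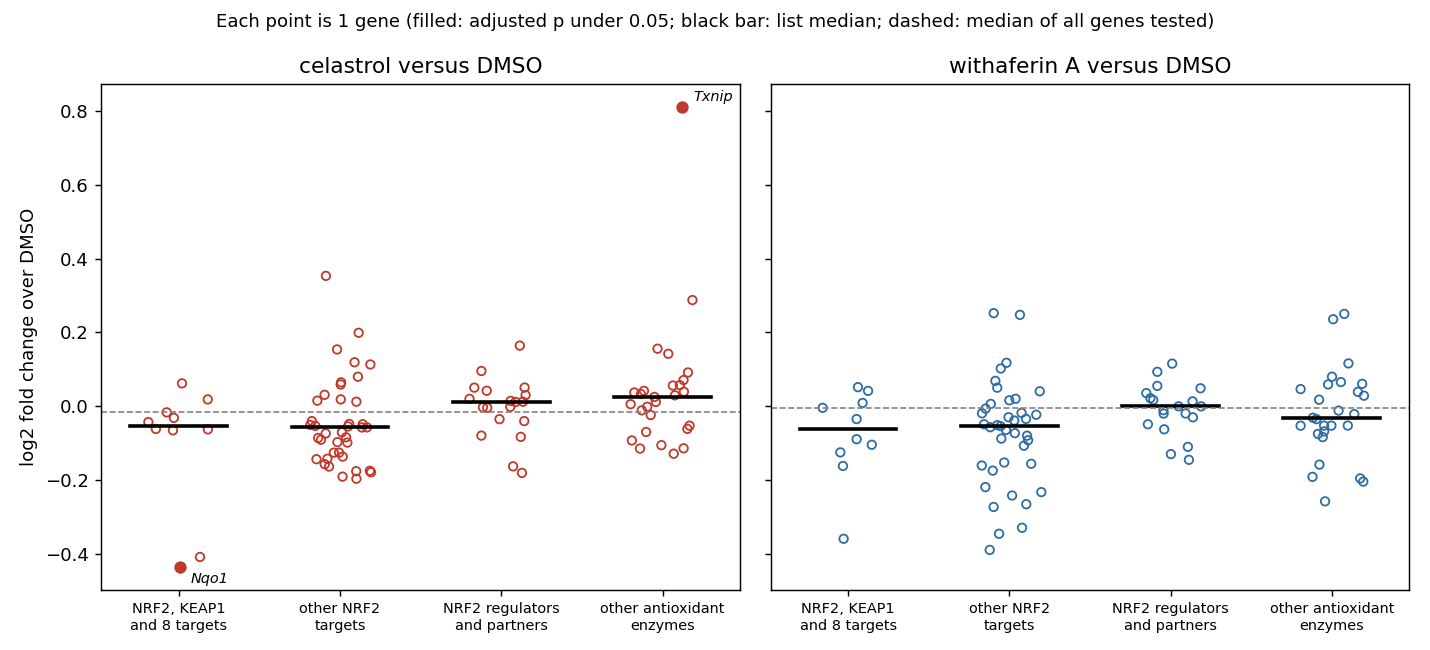
Log2 fold change over DMSO (vertical axis) of every tested gene in 4 lists (horizontal axis), after celastrol (left) and withaferin A (right). Each point is 1 gene, filled where its adjusted p is under 0.05 (Nqo1 and Txnip, both after celastrol), black bars are list medians and the dashed line is the median of all genes tested.

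Of a list of 48 further NRF2 targets 41 had a probe set of their own and 39 were tested. Of these, 0 rose and 0 fell in any of the 3 comparisons. Their median was −0.06 after celastrol and −0.05 after withaferin A, and 27 and 29 of the 39 values were below 0, where 57.4% and 51.5% of all genes tested were. An unadjusted p under 0.05 was held by 5 of the 39 after celastrol, against 10.4% of all genes. After withaferin A it was 10, against 15.7%, and between the compounds 7, against 16.1%. Me1, malic enzyme, which makes NADPH, had −0.20 ± 0.06 after celastrol (adjusted p = 0.157). Idh1, the cytosolic isocitrate dehydrogenase and another NADPH source, had −0.19 ± 0.06 after celastrol (adjusted p = 0.249) and −0.35 ± 0.06 after withaferin A (adjusted p = 0.11). Idh1 was at 9.51, 9.45, 9.44 and 9.61 on the withaferin A arrays, against 9.90, 9.89, 9.76 and 9.84 with DMSO, and did not overlap. Every withaferin A array lay lower for 4.69% of all genes tested. Idh1 was not alone among these targets in this, Ftl1 being another.

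Other targets with the smallest p belonged to iron storage, heme synthesis, peroxide removal and export. The ferritin light chain gene Ftl1 had −0.16 ± 0.06 after celastrol (adjusted p = 0.254) and −0.24 ± 0.06 after withaferin A (adjusted p = 0.155); ferritin genes have many processed copies, and probes may read several of them. Peroxiredoxin gene Prdx1 had −0.39 ± 0.10 and Fech −0.23 ± 0.06 after withaferin A (adjusted p = 0.168 each). The enzyme of Fech inserts iron into protoporphyrin to form heme. The exporter gene Abcc4 had 0.20 ± 0.09 after celastrol (adjusted p = 0.438). By function, the 5 NADPH enzymes all had values below 0 after celastrol, from −0.20 for Me1 to −0.09 for Pgd, and 4 of 5 after withaferin A. Of 10 glutathione transferases 6 were below 0 after celastrol (−0.18 for Gstm2 to 0.15 for Gstm1) and 9 after withaferin A (−0.33 for Mgst1 to 0.0061 for Gstt1). The shares of all tested genes below 0 were 57.4% after celastrol and 51.5% after withaferin A. Below 0 were also 4 of 6 iron and heme genes after celastrol and 5 after withaferin A, 5 and 4 of 6 peroxide and thiol enzymes, and 4 and 4 of 6 phase I and II enzymes, in the same order of compounds. Of 4 efflux transporters 2 were below 0 after each compound, with medians of −0.04 after celastrol and 0.0057 after withaferin A. Of the remaining pair, Sqstm1 and Osgin1, 1 was below 0 after each compound, with Osgin1 at 0.08 after celastrol and 0.25 after withaferin A. The transferase genes are close copies of one another, so their probes may share signal. None of these genes passed, and the functional groups carry no test of their own.

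Among partners and other regulators of NRF2, a list of 20 genes, 19 were tested, 0 passed in any comparison, and their medians were 0.01 after celastrol and −0.0006 after withaferin A, with values from −0.18 to 0.16 and from −0.15 to 0.12. Rbx1, part of the ubiquitin ligase that KEAP1 recruits, had −0.18 ± 0.07 after celastrol (adjusted p = 0.295) and −0.13 ± 0.07 after withaferin A (adjusted p = 0.353), and the ligase scaffold gene Cul3 had −0.15 ± 0.08 after withaferin A (adjusted p = 0.368). The repressor gene Bach2, the small MAF gene Mafk and the nuclear receptor gene Rxra had −0.16, 0.16 and 0.10 after celastrol (adjusted p = 0.579 to 0.792). Syvn1, a ubiquitin ligase of the endoplasmic reticulum, and the kinase gene Gsk3b had 0.09 and −0.11 after withaferin A (adjusted p = 0.377 and 0.505).

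Among antioxidant enzymes less tied to NRF2, 27 of 28 genes were tested, and 1 passed. Txnip, which is no antioxidant but binds and inhibits thioredoxin, rose after celastrol. Its log2 signal was 9.42, 9.50, 9.42 and 9.45 on the celastrol arrays and 8.81, 8.76, 8.91 and 8.53 on the withaferin A arrays, against 8.48, 8.52, 8.82 and 8.73 on the DMSO arrays, and all celastrol arrays lay above the others. The change was 0.81 ± 0.09 after celastrol (adjusted p = 0.00463), and it was 0.70 ± 0.09 lower after withaferin A than after celastrol, a log2 difference of −0.70 (adjusted p = 0.0231). The celastrol call for Txnip was kept in 20 of 21 alternatives, and lost with marker scores as covariates (0.81 ± 0.12, adjusted p = 0.0784). The call between the compounds was lost in 6 of 21, among them those without celastrol replicate 2 (adjusted p = 0.0861) or 3 (0.0816) or without withaferin A replicate 2 (0.0814) or 4 (0.0749).

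The rest of that list did not pass. The stress-induced gene Sesn1 had 0.29 ± 0.08 after celastrol (adjusted p = 0.122), catalase gene Cat −0.12 ± 0.05 (adjusted p = 0.479) and Sesn3 −0.11 ± 0.05 (adjusted p = 0.492). After withaferin A, Sod1, the cytosolic superoxide dismutase, had 0.25 ± 0.07 (adjusted p = 0.163) and the mitochondrial thioredoxin reductase gene Txnrd2 0.24 ± 0.07 (adjusted p = 0.189), while Sesn3 and the mitochondrial peroxiredoxin gene Prdx3 had −0.16 ± 0.05 and −0.26 ± 0.10 (adjusted p = 0.199 and 0.246). The list medians were 0.02 after celastrol and −0.03 after withaferin A.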

How the data were processed

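RNA of 12 hypothalamus samples was measured on 12 one-colour Affymetrix arrays with biotin label, per the labels' protocols. The deposited log2 values were made by the authors with RMA, per the submitters' processing notes, whose version is not given in the sources used here. Array values carry no depth. Groups and replicate numbers came from the sample titles.

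Of 35556 probe sets 21789 had exactly 1 gene symbol in the platform's probe table; 1621 with several and 12146 with none were left out. A gene was read from its probe set of highest mean. After removal of the dimmest genes, by mean signal under the 25th percentile, 14953 were tested together in R 4.3.3 by lmFit and eBayes of limma 3.58.1 (9 residual and 4.44 prior degrees of freedom) in a fit of 3 group means, with two-sided tests, Benjamini-Hochberg adjusted p and a threshold of 0.05. Errors are SE of that fit unless called SD. The steps were tested on simulated data. Plots used matplotlib 3.10.9.

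The members and lists were chosen with earlier results of these data known, so their counts are no independent evidence. Named genes were the 10 members, every gene of the 3 pathway lists past the threshold, the 4 of smallest p per list and comparison with DMSO, and the 5 genes most correlated with the member of smallest p; the split of NRF2 targets by function, with the genes it names, was made after their values were seen. Outside that rule, also after values were seen, the called cell and tissue markers after celastrol (Opalin, Sox10, P2ry13, Slc2a1, Tek and Oxt) and the dim pituitary markers Tshb and Fshb were named. Sqstm1 stands in 2 lists. The promoter windows come from RefSeq.

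Alternatives were no filter or the 50th percentile, quantile normalization, median centring, an intensity trend with robust prior, array weights, fits to 2 groups, a replicate block, marker scores as covariates, and each array left out. Other probe sets of the members could not be tried, since each had 1.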

Additional observations from a re-analysis of the deposited data

Results flagged for a closer look

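One of 30 sets of 4 arrays (10 genes in 3 groups) held an array far from the others. Srxn1 was 9.80 on withaferin A replicate 1 and 9.69 to 9.70 on the other withaferin A arrays, a gap of 0.901 of the group's whole range, above Dixon's critical value for 4 samples. Chance flags about 1 in 20 such sets. The groups of Srxn1 overlapped with and without this array, and it was the array with the lowest Slc7a11 signal (8.82).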

How the results depend on the processing

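Of 624 values of the 10 genes under the alternatives, over 30 gene-by-comparison results, 578 kept their direction and side of the threshold, 13 lost a call (all Nqo1 after celastrol), 33 turned sign (in 15 results) and 0 gained a call. The cause was not tested where none is given. Nqo1 and Hmox1 have no value with a filter at the 50th percentile, which leaves them out as dim.

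Among the 10 genes after celastrol, 0 passed with no filter on dim genes, with the filter at the 50th percentile, with 2 groups only, with the replicate block and with pituitary and thalamus scores as covariates, and 0 to 1 passed with an array left out. Over all genes the count after celastrol was 60 with no filter, 182 with 2 groups only, 195 with an intensity trend, 219 with array weights, 54 with the replicate block and 0 with covariates, and 6 to 207 with an array left out (the lowest without DMSO replicate 2, the highest without withaferin A replicate 1). After withaferin A it was 8 with the trend, 21 with array weights, 6 with covariates, and 0 to 172 (without DMSO replicate 3) with an array left out. For withaferin A against celastrol it was 11 with no filter, 13 at the 50th percentile, 12 with median centring, 29 with the trend, 19 with array weights, 0 with 2 groups only or covariates, and 0 to 56 (without withaferin A replicate 1) with an array left out. Under the replicate block Nqo1 after celastrol had an adjusted p of 0.125. Replicate numbers showed no clear pairing of the arrays: over 12 pairs of the same number, correlations of deviations from group means ran from −0.28 to 0.12. Such correlations cannot show that no pairing existed.

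All sign changes were in values that were not called. With covariates the celastrol values were 0.0097 for Hmox1, −0.0419 for Gclm, 0.0129 for Srxn1, −0.0591 for Nfe2l2 and 0.0762 for Keap1, with Hmox1 at 0.0199 after withaferin A and Keap1 at −0.0062 for withaferin A against celastrol. With array weights Gclm was −0.0010 after celastrol and Hmox1 0.0239 after withaferin A. With median centring Txnrd1 was −0.0369 and Keap1 −0.0041 after withaferin A, and Txnrd1 −0.0088 between the compounds; with quantile normalization Gclc was 0.0151 between them. With an array left out, values after celastrol spanned −0.185 to 0.0386 for Hmox1, −0.0284 to 0.0494 for Gclm, −0.102 to 0.0225 for Keap1, −0.0662 to 0.0028 for Srxn1 and −0.0523 to 0.0123 for Txnrd1. After withaferin A they spanned −0.0842 to 0.0746 for Hmox1 and −0.0573 to 0.0544 for Txnrd1. Between the compounds they spanned −0.0432 to 0.180 for Hmox1, −0.0631 to 0.0077 for Gsr, −0.0424 to 0.209 for Slc7a11 and −0.0405 to 0.0712 for Txnrd1. Nqo1 lies near the limit for dim genes, and 4 arrays a group limit the precision of all values.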
